A study of Mus musculus with 4 samples.

Results

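The tight junction scaffolds and occludin family described here are 8 mouse genes, taken by symbol from the gene lists of all 4 libraries. The cell libraries list 27998 genes and the nucleus library 48816. The set holds the cytoplasmic scaffolds Tjp1 (zonula occludens 1, ZO-1), Tjp3 (ZO-3), Cgn (cingulin) and Cgnl1 (paracingulin), the MARVEL-domain membrane proteins Ocln (occludin), Marveld2 (tricellulin) and Marveld3, and the adhesion molecule F11r (junctional adhesion molecule A). The study profiled the stria vascularis (SV), the epithelium of the cochlear lateral wall, from CBA/J mice at postnatal day 30 by scRNA-Seq (3 captures of whole cells) and snRNA-Seq (1 capture of nuclei). All mice were of 1 strain and age with no treatment, so the groups compared are cell types within a capture. Each capture pooled mice (the labels put them at about 12 per cell capture and 10 per nucleus capture, and the numbers in the study's text are not uniform), so a capture and not a mouse is the replicate.

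Tight junctions seal the space between neighbouring epithelial cells. In their strands, claudins and MARVEL proteins span the membrane, tricellulin takes the corners where 3 cells meet, and ZO proteins and cingulins tie the strands to the actin cytoskeleton. The SV has a pair of such seals, 1 between marginal cells, which face the endolymph, and 1 between basal cells, which face the spiral ligament, with the melanocyte-like intermediate cells and capillaries enclosed between them. Loss of tricellulin or of occludin causes hearing loss.

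The depth was 2811309, 8113494 and 8340882 unique molecular identifier (UMI) counts in the 3 captures of cells and 22332501 in the capture of nuclei. Clusters named from markers gave 130 marginal, 96 basal, 980 intermediate and 33 spindle/root cells, and 2571 marginal, 618 basal, 1464 intermediate and 206 spindle/root nuclei. None of the 8 genes was a marker or was used in clustering. Unnamed cells were left out. They were clusters of 37 and 70 cells with basal and fibrocyte markers raised, 1 of 352 cells with 2 marginal markers raised (median 44.8% mitochondrial UMIs), and 3 of 518, 390 and 369 cells with no marker raised (median 50.3% to 76.8% mitochondrial UMIs). UMIs were summed per capture and type, which gave 11 sums of cells, since capture 1 held only 4 spindle/root cells. The markers fitted the names: marginal markers summed to 5085 to 5239 CPM (UMIs per 1000000 UMIs of the sum) in marginal cells and 228 to 548 CPM in basal cells, and basal markers to 3296 to 4050 CPM in basal cells and 229 to 323 CPM in marginal cells. Other RNA moved with the types as well. The 8 intermediate cell markers summed to 4955 to 8386 CPM in marginal cells and 7139 to 10019 CPM in basal cells, which is 25.9% to 31.4% and 31.4% to 45.4% of the level in intermediate cells of the same capture. Of these markers, 7 were detected in both types. Tyrp1 was at 0 in both but had only 2 UMIs in intermediate cells, so its absence is not informative. Fibrocyte markers summed to 2094 to 4757 CPM in basal cells and 87.0 to 127 CPM in marginal cells. The part of intermediate and fibrocyte RNA in the results below was not tested. For some genes a value is also given in only the marginal and basal sub-clusters with the least intermediate RNA. Those sub-clusters differed in mitochondrial share too, so such values do not isolate intermediate RNA. Barcodes shared between libraries numbered 0 to 32 for any pair. Differences were tested with edgeR's quasi-likelihood test with the capture as a block, with Benjamini-Hochberg adjustment over all 7249 genes that passed the filter on low counts. At an adjusted p under 0.05 it called 29.2% of these genes between marginal and basal cells (15.1% higher in marginal, 14.1% higher in basal), 35.2% between marginal and intermediate cells (19% higher in marginal, 16.3% higher in intermediate) and 32% between basal and intermediate cells (16.7% higher in basal, 15.3% higher in intermediate). A lower level in such a sum may be less RNA per cell or fewer cells with any, which cannot be told apart in sums.

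In the reference annotation (GENCODE vM21, build mm10) the 8 genes lie on 7 chromosomes, and only Ocln (chr13:100496507-100552718, minus strand) and Marveld2 (chr13:100595957-100616971, minus strand) are neighbours, 43.2 kb apart. The others are Tjp1 at chr7:65296165-65527781, Tjp3 at chr10:81273207-81291581, Cgn at chr3:94760069-94786492, Cgnl1 at chr9:71626509-71771602 and Marveld3 at chr8:109947914-109962203, all on the minus strand, and F11r at chr1:171437535-171464603 on the plus strand. Tjp3 overlaps Apba3 on the opposite strand, which had 17 UMIs in marginal and 19 in basal cells. The strand setting of the counting is not given in the sources used here, so reads of Tjp3 and Apba3 may not be told apart.

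The genes showed 3 patterns across the 2 barriers, described below, and the 250 bases before the RefSeq start site (build GRCm38.p6) of 4 of them are shown as examples, F11r and Cgn for the marginal pattern, Ocln for the shared one and Tjp1 for the basal one. Capitals mark 2 motifs read on both strands, CACCTG (the E-box bound by Snail and Zeb repressors) and AACCNGTT (the Grainyhead-like site).
F11r, chr1:171437311-171437560, plus strand: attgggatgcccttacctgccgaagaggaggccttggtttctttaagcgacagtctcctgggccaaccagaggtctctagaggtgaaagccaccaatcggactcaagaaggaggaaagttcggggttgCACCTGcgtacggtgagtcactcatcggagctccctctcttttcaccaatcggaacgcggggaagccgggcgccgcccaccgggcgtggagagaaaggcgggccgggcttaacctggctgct
Cgn, chr3:94786483-94786732, minus strand: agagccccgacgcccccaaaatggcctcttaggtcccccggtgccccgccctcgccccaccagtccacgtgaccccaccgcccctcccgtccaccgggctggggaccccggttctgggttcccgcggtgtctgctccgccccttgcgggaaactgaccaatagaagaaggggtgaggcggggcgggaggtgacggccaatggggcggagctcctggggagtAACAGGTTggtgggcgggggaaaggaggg
Ocln, chr13:100552719-100552968, minus strand: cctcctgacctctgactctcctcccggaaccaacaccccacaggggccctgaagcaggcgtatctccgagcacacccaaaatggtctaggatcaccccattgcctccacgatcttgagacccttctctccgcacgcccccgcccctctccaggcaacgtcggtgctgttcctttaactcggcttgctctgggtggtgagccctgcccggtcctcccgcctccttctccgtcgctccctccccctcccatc
Tjp1, chr7:65371245-65371494, minus strand: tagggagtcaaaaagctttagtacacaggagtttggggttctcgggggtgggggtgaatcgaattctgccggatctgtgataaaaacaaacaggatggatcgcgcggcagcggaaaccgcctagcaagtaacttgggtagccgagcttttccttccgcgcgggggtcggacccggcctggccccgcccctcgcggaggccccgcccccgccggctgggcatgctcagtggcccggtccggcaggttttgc

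RefSeq promoters were at hand for 7 of the 8 genes (none for Marveld3), with 2 start sites each for Tjp3, Ocln and Marveld2. The RefSeq start of Tjp1 used here lies inside its GENCODE span, and the bases before the outer end of that span were not examined. CACCTG lay before the start of F11r, before both starts of Tjp3 and before 1 of the 2 starts of Ocln, and 17.2% of 32841 promoters hold it. AACCNGTT lay before the start of Cgn only among these genes, and 1.79% of promoters hold it. The GC box GGGCGG was found in all of these promoters except those of Tjp3, and 32.7% of all promoters hold it. These matches describe letters and no binding.

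Tjp1 was the basal gene of the set. ZO-1, its product, is the scaffold that recruits claudins into strands. Its level was 210, 245 and 223 CPM in the basal cells of captures 1, 2 and 3 and 19.9, 46.2 and 31.8 CPM in the marginal cells. The basal sums lay above every marginal sum and above the intermediate sums, at 23.8 to 26.1 CPM. In edgeR's quasi-likelihood fit, which called 14.1% of 7249 genes higher in basal than in marginal cells, Tjp1 was 6.49-fold higher in basal cells (log2 fold change -2.70 ± 0.21 SE, 95% interval -3.11 to -2.29, adjusted p = 2.41e-17). Against intermediate cells, where 16.7% of genes were called higher in basal cells, it was 7.79-fold higher (adjusted p = 2.72e-23). With the capture as a block, these p-values rest on the spread left within captures of pooled mice after type and capture were fitted. The fit had only 5 residual degrees of freedom, and edgeR's quasi-likelihood method borrows information on spread from other genes. The p-values are therefore not a measure of the spread of Tjp1 alone between captures. The marginal cell level did not pass the test against intermediate cells (log2 fold change 0.26 ± 0.24 SE, adjusted p = 0.439).

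The marginal cell level of Tjp1 was near 0 in the cells with least intermediate RNA, a choice of cells made after the data were seen. In the marginal sub-cluster with the lowest intermediate marker level (34 cells, 401 to 559 CPM of those markers per capture), Tjp1 had 1 UMI in all, and its level was 0, 11.5 and 0 CPM. These cells also had fewer UMIs (median 6941) and a lower mitochondrial share (median 11.04%) than the other marginal sub-clusters (11212 to 14593 UMIs and 27.7% to 32.4%), and the part of these differences was not tested. In the basal sub-cluster chosen the same way (37 cells, 2269 to 4130 CPM) it was 323, 335 and 431 CPM. The fold change over these sub-clusters was -6.48 ± 0.63 SE on the log2 scale (adjusted p = 4.22e-12 by edgeR's quasi-likelihood test, where 58% of 2485 genes tested were called in either direction).

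Ocln marked both barriers. Occludin is the archetypal MARVEL protein of the strands. Its level was 83.7, 79.2 and 76.4 CPM in marginal cells and 85.2, 84.6 and 60.5 CPM in basal cells of captures 1, 2 and 3. The 2 ranges overlapped, and the difference was -0.02 ± 0.22 SE on the log2 scale (95% interval -0.45 to 0.41, adjusted p = 0.962 in edgeR's quasi-likelihood fit). That interval runs from 0.731 to 1.33 as a ratio of marginal to basal cells. Intermediate cells held 1.83 to 3.11 CPM, below every sum of the barrier cells, and Ocln was 26.5-fold higher in marginal and 26.9-fold higher in basal than in intermediate cells (adjusted p = 4.54e-21 and 3.18e-20, where 19% of genes were called higher in marginal and 16.7% higher in basal cells). Spindle/root cells, at 69.5 and 72.4 CPM, lay within the range of the basal sums. In the sub-clusters with the least intermediate RNA, Ocln was 72.1, 149 and 95.4 CPM in marginal and 114, 123 and 144 CPM in basal cells, and the groups still overlapped (log2 fold change -0.24 ± 0.42 SE, adjusted p = 0.646).

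Cgnl1 was also found in both barriers but was broader. Paracingulin binds ZO-1 and GTPase regulators at tight and adherens junctions. Its level was 151, 156 and 121 CPM in marginal cells and 145, 183 and 117 CPM in basal cells of captures 1, 2 and 3. The groups overlapped (log2 fold change -0.15 ± 0.17 SE, 95% interval -0.50 to 0.20, adjusted p = 0.586). Unlike occludin, it was well detected in intermediate cells, at 64.9 to 82.2 CPM, and was 1.60-fold higher in marginal and 1.77-fold higher in basal cells (adjusted p = 0.000331 and 2.95e-05). Both calls were lost without capture 2 (log2 fold changes 0.46 and 0.49, adjusted p = 0.0596 and 0.0706). The marginal to basal difference depended on which cells were taken. In the sub-clusters with the least intermediate RNA the level was 90.1, 45.9 and 76.3 CPM in marginal and 152, 222 and 201 CPM in basal cells, with no overlap, and the fold change was -1.63 ± 0.38 SE on the log2 scale (adjusted p = 0.000269). Of the 2485 genes tested there, 58% were called, and the share of genes without overlap is not given here. The marginal level rests on 17 UMIs from 34 cells that also differed in depth and mitochondrial share. The part of those differences was not tested. The same marginal cells did not lie above the intermediate cells (log2 fold change -0.55, adjusted p = 0.222).

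F11r had the highest marginal cell level of the genes of the marginal pattern. Its product is an immunoglobulin-type adhesion molecule that binds ZO-1 and the polarity protein Par-3. Its level was 104, 127 and 95.5 CPM in marginal cells and 19.9, 7.55 and 11.3 CPM in basal cells of captures 1, 2 and 3. Every marginal sum lay above every basal sum, and the fold was 9.38 (log2 fold change 3.23 ± 0.32 SE, adjusted p = 4.27e-13 by edgeR's quasi-likelihood test, where 15.1% of genes were called higher in marginal cells). The log2 fold change was 2.58 without capture 2. Basal cells were in turn 4.23-fold higher than intermediate cells, at 1.17 to 2.76 CPM (adjusted p = 0.00204), a call lost without capture 1 (log2 fold change 1.72, adjusted p = 0.0659). The summed marginal markers were also higher in basal cells, at 548, 228 and 348 CPM in captures 1, 2 and 3. In intermediate cells they were at 131, 161 and 92.7 CPM, and the part of marginal RNA in this step was not tested. In the sub-clusters with the least intermediate RNA, F11r was 126, 183 and 124 CPM in marginal and 0, 9.94 and 0 CPM in basal cells (log2 fold change 4.62 ± 0.70 SE, adjusted p = 2.74e-07), and the step from intermediate to basal cells missed the threshold there (0.94, adjusted p = 0.469). Between marginal and basal cells, 58% of the 2485 genes tested were called in that setting.

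Cgn and Cgnl1, the 2 cingulins, did not share a pattern. Cingulin links ZO proteins to actomyosin and binds the exchange factor GEF-H1. The level of Cgn was 27.9, 27.7 and 55.2 CPM in marginal cells and 2.84, 3.02 and 0 CPM in basal cells, where it had 3 UMIs in all against 54 in marginal cells. The ratio of the pooled levels was 15.6 with an exact 95% counting interval of 5.05 to 77.8, and the fitted difference was 3.75 ± 0.66 SE on the log2 scale (adjusted p = 5.23e-06), or 3.09 without capture 3 and 4.46 without capture 2. Cgn passed the low-count filter only through types where it was higher, so its adjusted p is no support apart from the counts. No difference between basal and intermediate cells passed the error (log2 fold change -0.01 ± 0.65 SE, 95% interval -1.31 to 1.30, adjusted p = 0.995).

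Marveld2 followed the same direction. Tricellulin is the MARVEL protein that closes tricellular corners. It was at 31.9, 21.1 and 36.1 CPM in marginal cells and 5.68, 4.53 and 0 CPM in basal cells, from 41 and 5 UMIs. The groups did not overlap, and the log2 fold change was 2.74 ± 0.67 SE (adjusted p = 0.000854), or 2.19 without capture 3 (adjusted p = 0.0333). Marveld2 passed the low-count filter only through types where it was higher, so its adjusted p is no support apart from the counts. Intermediate cells held 0 to 1.04 CPM, and the step from intermediate to basal cells missed the threshold (log2 fold change 2.23 ± 1.05 SE, adjusted p = 0.0971).

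Tjp3 and Marveld3 were the scarcest members, with 39 and 41 UMIs over all sums, and did not pass the filter on low counts that the other 6 passed. Tjp3, the ZO paralogue of more restricted epithelial use, was at 23.9, 15.8 and 17.0 CPM in marginal and 0, 1.51 and 7.56 CPM in basal cells, from 26 and 3 UMIs. Marveld3 was at 12.0, 18.5 and 17.0 CPM in marginal and 2.84, 3.02 and 0 CPM in basal cells, from 25 and 3 UMIs. For both genes all marginal sums lay above all basal sums, and the share of all genes with such a separation is not given here. The pooled ratios were 7.49 for Tjp3 (exact 95% counting interval 2.29 to 38.7) and 7.20 for Marveld3 (2.20 to 37.3). In the edgeR fit without the filter, which called 7.43% of 15507 genes higher in marginal cells, the log2 fold changes were 2.79 ± 0.81 SE for Tjp3 (adjusted p = 0.00591) and 2.82 ± 0.82 SE for Marveld3 (adjusted p = 0.00579). Without capture 3 the call on Marveld3 was lost (log2 fold change 2.34, adjusted p = 0.0726).

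**Figure D1:**
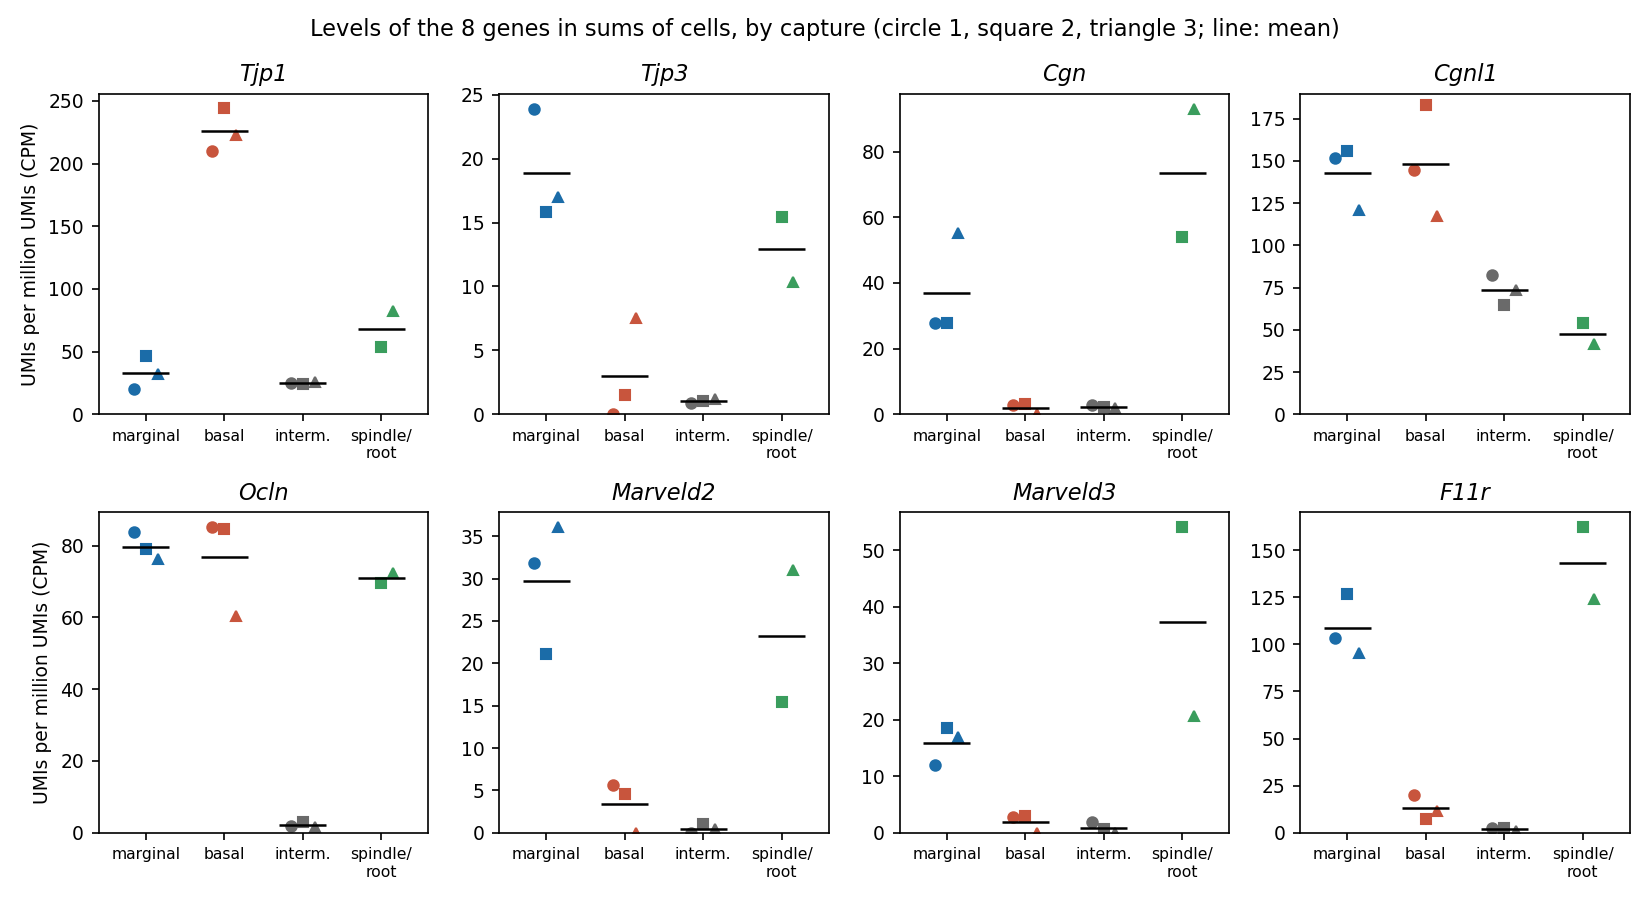
Level of each gene in CPM (linear axes from 0, scaled per gene) in the sums of marginal, basal, intermediate and spindle/root cells, with a symbol per capture and a line at the mean. Tjp1 is high in basal cells, from 210 to 245 CPM, and Ocln and Cgnl1 overlap between marginal and basal cells. The other 5 genes are higher in every marginal than in every basal sum. The share of all genes whose sums separate in this way is not given here.

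Spindle/root cells, which lie at the edges of the SV and also line the endolymph, held all 8 genes in captures 2 and 3. Their means were 73.6 ± 27.6 CPM for Cgn, 143 ± 27.0 CPM for F11r and 37.4 ± 23.6 CPM for Marveld3 (SD, n = 2), set beside 36.9 ± 15.8, 109 ± 16.2 and 15.8 ± 3.42 CPM in marginal cells (SD, n = 3). With 2 sums of 14 and 15 cells, these values were not tested. Cgnl1 (54.1 and 41.4 CPM) and Ocln (69.5 and 72.4 CPM) were below every marginal sum in both. Tjp3 was at 15.4 and 10.3 CPM, from only 2 and 1 UMIs. Over all 33 spindle/root cells, those of capture 1 included, Tjp3 had 7 UMIs or 23.9 CPM, beside 17.6 CPM in pooled marginal cells. In nuclei Tjp3 was at 19.6 CPM (7.89 to 40.5) in spindle/root and 15.7 CPM (12.2 to 19.9) in marginal nuclei. No order of the 2 types was read from these counts. Marveld2 was at 15.4 and 31.0 CPM and Tjp1 at 54.1 and 82.7 CPM.

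In nuclei the 6 genes that differed between marginal and basal cells had the same direction. The same count over all called genes is not given here, so it cannot be read as particular to these genes. The nuclei are 1 library, so the intervals cover counting error only and there is no replicate check. Tjp1 was at 249 CPM in basal nuclei (exact 95% Poisson interval 219 to 281, 258 UMIs) and 47.1 CPM in marginal nuclei (40.8 to 54.0, 204 UMIs), and the ratio of marginal to basal was 0.189 (0.157 to 0.228). F11r was at 160 CPM in marginal nuclei (148 to 172) and 45.3 CPM in basal nuclei (33.3 to 60.2), a ratio of 3.53 (2.62 to 4.84). Both kept the direction seen in cells.

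The other marginal genes were scarce in basal nuclei. Marveld2 had 207 UMIs in marginal and 9 in basal nuclei (ratio 5.51, exact 95% interval 2.85 to 12.2). Cgn had 207 and 15 (3.30, 1.96 to 6.01), Marveld3 had 122 and 12 (2.43, 1.34 to 4.84), and Tjp3 had 68 and 2 (8.14, 2.17 to 68.6). Each interval lay above 1. Among 9521 genes with at least 50 UMIs in the 2 types together, 17.4% were at least 2-fold higher in marginal and 6.33% at least 2-fold higher in basal nuclei, with a median log2 ratio of 0.34.

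Ocln and Cgnl1, which overlapped in cells, were higher in marginal nuclei. Ocln was at 166 CPM (154 to 179) in marginal and 109 CPM (89.8 to 131) in basal nuclei, a ratio of 1.53 (1.25 to 1.88). Cgnl1 was at 198 CPM (184 to 211) and 135 CPM (113 to 159), a ratio of 1.46 (1.22 to 1.76). As log2 ratios these are 0.61 and 0.55, beside a median of 0.34 over all genes compared. Mitochondrial UMIs had a median of 1.84% in marginal and 5.12% in basal nuclei. Over nuclei with under 5% of them, a choice made after the data were seen, the log2 ratio was 0.11 for Ocln and 1.04 for Cgnl1, so the size of both steps depended on the nuclei taken.

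**Figure D2:**
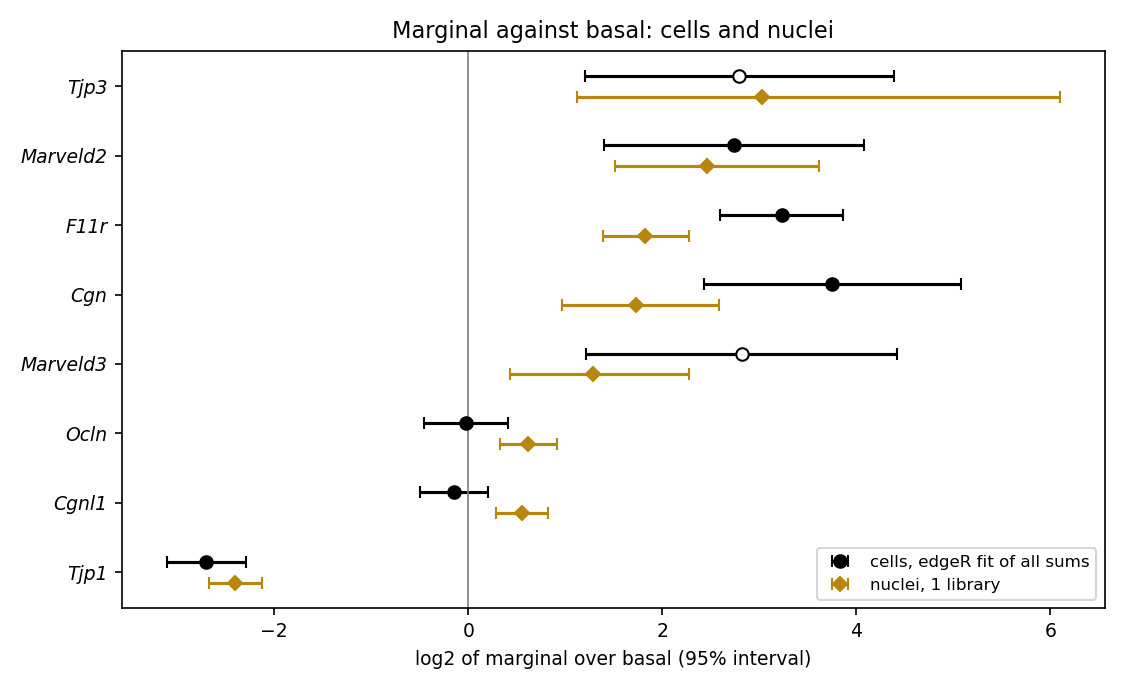
Log2 ratio of marginal to basal level with 95% intervals for each gene, in cells (circles, edgeR fit of all sums, open for Tjp3 and Marveld3, which were fitted without the filter on low counts) and in nuclei (diamonds, counting error of 1 library). Tjp1 lies below 0 in both, Ocln and Cgnl1 near 0 in cells and above it in nuclei, and the other 5 genes above 0 in both.

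Basal nuclei also held marginal cell RNA, and its amount can be set beside the members. The 8 marginal markers were in basal nuclei at 18.3% to 39.0% (median 29.4%) of their level in marginal nuclei. F11r was there at 28.4%, Cgn at 30.3% and Marveld2 at 18.2%, within or at the edge of that range. Tjp3 at 12.3% and Marveld3 at 41.1% lay just outside it, each with an interval that overlapped it. Ocln at 65.5% and Cgnl1 at 68.3% lay above every marginal marker, and Tjp1 at 528% was the only member higher in basal nuclei. In the other direction the 6 basal markers were in marginal nuclei at 1.67% to 24.5% (median 6.08%) of their basal level. Tjp1 was there at 18.9%, above that median and below only Cldn11, the marker at 24.5%. Whether the marginal pattern genes have any basal level of their own was not tested.

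**Figure D3:**
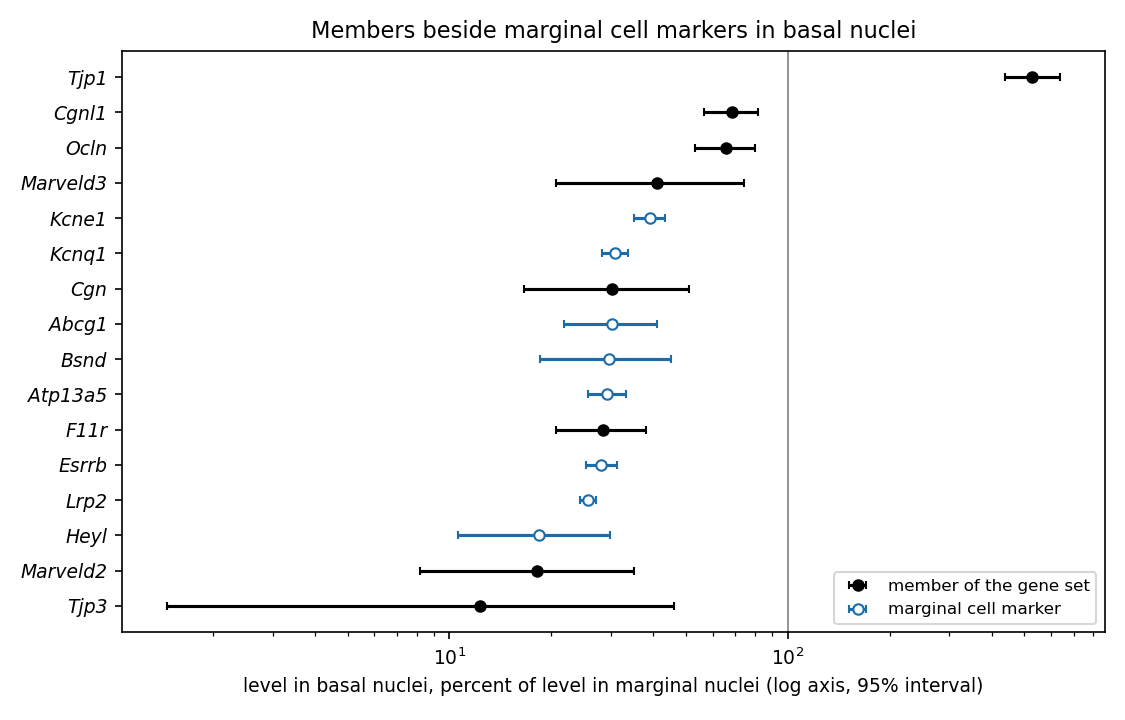
Level in basal nuclei as a percent of the level in marginal nuclei (log axis, exact 95% intervals), for the 8 genes (filled) and the 8 marginal cell markers (open). F11r, Cgn and Marveld2 sit among the markers, at 18.2% to 30.3%, while Ocln and Cgnl1 sit above them at 65.5% and 68.3% and Tjp1 lies beyond 100%.

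Levels in nucleus types that should lack epithelial junctions set the background. In erythroid nuclei the 8 genes ranged from 0 CPM for Tjp3 to 15.3 CPM for Cgnl1, and in B cell nuclei from 0 CPM for Tjp3 to 30.1 CPM for Cgnl1. Intermediate nuclei were at 60.7 CPM for Tjp1 (51.4 to 71.3) and 99.2 CPM for Cgnl1 (87.2 to 112), above the upper limits in both, 39.5 and 52.5 CPM. For Ocln they were at 12.6 CPM (8.53 to 17.8), and the interval in B cell nuclei reached 29.2 CPM, so occludin RNA in intermediate nuclei could not be told from background. The same held for Cgn, Marveld2, Marveld3 and Tjp3 in intermediate nuclei, at 0.810 to 6.48 CPM. Unnamed nuclei, with a median of 49.4% mitochondrial UMIs, held Cgnl1 at 164 CPM (154 to 174), above both intermediate and basal nuclei. Unnamed cells held it at 116 CPM (108 to 124). The part of such RNA in the Cgnl1 levels of the named types was not tested. In basal nuclei, Marveld2 at 8.67 CPM (3.97 to 16.5) also lay within the interval of B cell nuclei (0.607 to 18.1 CPM). So did the basal nucleus levels of Cgn at 14.5 CPM (B cell interval 1.55 to 22.0 CPM), Marveld3 at 11.6 CPM (0.0634 to 14.0 CPM) and Tjp3 at 1.93 CPM (0 to 9.24 CPM). Erythroid nuclei, which held more UMIs, had lower upper limits, at 3.82 CPM for Cgn and 3.27 CPM for Marveld3. The basal nucleus intervals of Cgn (8.09 to 23.8 CPM) and Marveld3 (5.98 to 20.2 CPM) lay above these. For Marveld2 and Tjp3 the erythroid upper limits were 4.87 and 1.37 CPM, within the basal intervals. The reading thus depended on the reference taken.

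**Figure D4:**
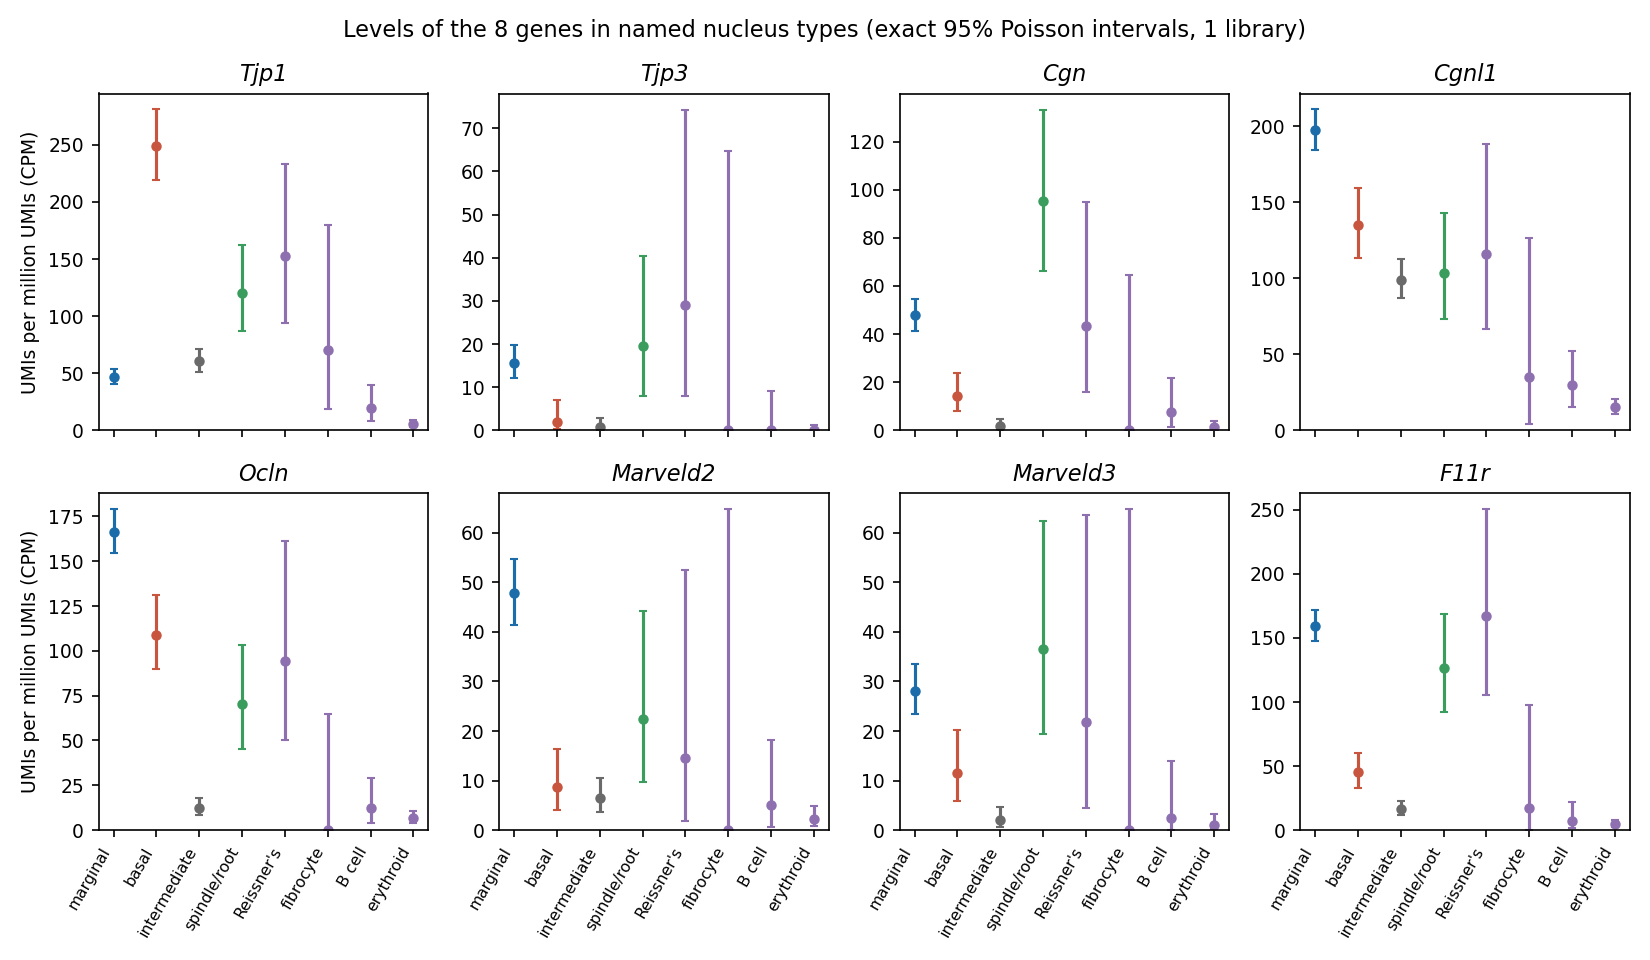
Level of each gene in CPM (linear axes from 0, scaled per gene) in 8 named nucleus types, with exact 95% Poisson intervals from 1 library. B cell and erythroid nuclei are the low reference, and Tjp1 is highest in basal nuclei at 249 CPM.

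For Tjp1, Ocln and F11r, shares of barcodes with a UMI gave the same picture with less resolution. Tjp1 had a UMI in 86.5% of 96 basal and 29.2% of 130 marginal cells (median 12153 and 11536.5 UMIs per cell), against 3.96% of 101 erythroid cells (median 10220 UMIs) and 0 of 37 B cells (median 2462 UMIs), which at 3 counts of the total allows a share of up to 8.11%. After thinning each cell to 1000 UMIs, which left out no marginal or basal cell, the shares were 20.8% (exact 95% interval 13.2% to 30.3%) and 4.62% (1.71% to 9.78%), and no erythroid cell had one. The intervals and half-widths for shares of cells pool the cells of the 3 captures. They cover the draw of cells and not the spread between captures, which are the replicates. Ocln had a UMI in 57.3% of basal and 58.5% of marginal cells and in 0 of 101 erythroid cells, which by the same 3 counts allows up to 2.97%. Its thinned shares were 7.29% (2.98% to 14.4%) and 6.92% (3.21% to 12.7%). F11r had a UMI in 66.2% of marginal and 10.4% of basal cells, or 9.23% (4.86% to 15.6%) and 2.08% (0.253% to 7.32%) after thinning, which overlap. Cgnl1 had one in 85.4% of basal and 71.5% of marginal cells, and in 11.5% and 16.9% after thinning. That thinned difference, marginal minus basal, was 5.46 percentage points with a 95% half-width of 9.06, so no order was resolved. Tjp3 went from 3.1% of basal and 17.7% of marginal cells to 1.04% and 0.769%, the latter from 1 marginal cell. Its thinned difference was -0.272 with a half-width of 2.53, so no order was resolved there either. Of the 8 genes, a median of 3 were detected in a marginal cell and 3 in a basal cell, and 0 in an intermediate cell, where the median depth was lower (6182.5 UMIs).

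In nuclei, thinned to 1000 UMIs with 53 marginal and 23 basal nuclei left out, Tjp1 had a UMI in 20.3% of basal (17.2% to 23.8%) and 4.57% of marginal nuclei (3.79% to 5.46%). Before thinning the shares were 29.8% and 7.35%, with median depths of 1490 and 1392 UMIs. F11r had one in 14.9% of marginal (13.6% to 16.4%) and 5.21% of basal nuclei (3.57% to 7.31%) after thinning, and 22.3% and 6.96% before. Erythroid nuclei, of median depth 5261 UMIs, were at 0.410% for both genes after thinning and at 2.87% for Tjp1 and 2.66% for F11r before.

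Over the 11 sums of cells, the genes whose log2 level followed each well-counted member most closely were listed as a description. For Tjp1 they were Rnase4, Tmem119 and Cemip (Pearson r of 0.987, 0.987 and 0.986), for F11r Sorl1, Mall and Spint1 (0.989, 0.987 and 0.986), for Ocln Rhou, Ank and Tspan15 (0.985, 0.982 and 0.982), and for Cgnl1 Golga4, Tns1 and Ptgds (0.964, 0.949 and 0.947). The 11 sums come from 4 cell types, and those of a capture share a suspension.

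The wider junction list put the members in context. Of 62 other junction genes outside the claudins, 42 passed the filter, 8 were higher in marginal and 15 were higher in basal cells (adjusted p under 0.05, where 29.2% of all genes tested were called in either direction). The median log2 fold change over these 42 genes was -0.04, beside 0.03 over all genes tested. The calls in either direction were spread over 6 roles.

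Angulins, the membrane proteins that bring tricellulin to cell corners, were on the marginal side. Ildr1 was at 47.8, 51.5 and 38.2 CPM in marginal and 5.68, 3.02 and 0 CPM in basal cells (adjusted p = 3.95e-07). Lsr had 32 UMIs in marginal and 0 in basal cells, which is at least 9.22-fold higher when 3 UMIs over the basal sums are taken as the floor (adjusted p = 1.74e-05). With 4 and 0 basal UMIs, Ildr1 and Lsr passed the low-count filter only through types where they were higher. Their adjusted p is therefore no support apart from the counts. Ildr2 had no UMI in either type. In nuclei the ratios of marginal to basal were 3.35 for Ildr1 (2.21 to 5.31) and 5.03 for Lsr (2.25 to 14.0), so Marveld2 and the 2 detected angulins were higher on the same side in both datasets.

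Among the listed membrane proteins other than claudins and angulins, Jam3 and Marveld1, a further gene of the MARVEL-domain family, were higher in basal cells. Marveld1 was at 125, 122 and 98.3 CPM in basal and 15.9, 13.2 and 12.7 CPM in marginal cells (log2 fold change -3.11 ± 0.29 SE, adjusted p = 1.17e-13), and Jam3 at 19.9, 60.4 and 49.1 CPM in basal and 3.98, 2.64 and 2.12 CPM in marginal cells (-4.08 ± 0.61 SE, adjusted p = 1.82e-07). RNA of the MARVEL-domain and JAM genes was thus split, with Marveld2 and F11r higher in marginal cells and Marveld1 and Jam3 higher in basal cells. Whether the product of Marveld1 takes part in tight junction strands was not tested. Jam2 was also higher in basal than in marginal cells (-0.68 ± 0.22 SE, adjusted p = 0.0157), but missed the threshold without capture 3 (adjusted p = 0.131). Its level was highest in intermediate cells, at 180, 152 and 174 CPM. Basal cells were below them (log2 fold change -0.93 ± 0.17 SE, adjusted p = 6.60e-06 by edgeR's quasi-likelihood test). The part of intermediate RNA in the basal level of Jam2 was not tested. Cxadr, the coxsackie and adenovirus receptor, had 36 UMIs in marginal and 1 in basal cells (ratio 31.1, exact 95% interval 5.24 to 1262), but that direction was lost when the 37 unnamed cells with basal and fibrocyte markers were counted as basal (log2 fold change -2.27, adjusted p = 0.0668), and its ratio in nuclei was 1.34 (0.793 to 2.39).

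Plaque and ZO partner genes held 4 calls among 11 tested, all higher in basal cells, where 14.1% of all genes were called higher in basal cells and 29.2% in either direction. They were Ybx3, the ZO-1 binding transcription factor ZONAB (log2 fold change -1.21 ± 0.22 SE, adjusted p = 6.71e-06), the angiomotin-like Amotl1 (-0.75 ± 0.24 SE, adjusted p = 0.0106) and Amotl2 (-1.36 ± 0.29 SE, adjusted p = 0.000133), and the small GTPase Rab13 (-1.26 ± 0.49 SE, adjusted p = 0.0444), which is named after its value was seen. The call on Amotl1 was lost without capture 3 (adjusted p = 0.153).

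Of 10 polarity genes tested, Crb3 and Prkcz were higher in marginal and Pard6g in basal cells, a share near the 29.2% of all genes called in either direction. Crb3, the apical Crumbs protein, was at 71.7, 62.0 and 65.8 CPM in marginal and 0, 1.51 and 0 CPM in basal cells (96 and 1 UMIs, ratio 82.9, exact 95% interval 14.5 to 3310, adjusted p = 9.13e-11), with its only basal UMI in capture 2. Crb3 passed the low-count filter only through types where it was higher, so its adjusted p is no support apart from the counts. In nuclei its ratio was 2.13 (1.37 to 3.48), and basal nuclei held 46.9% of the marginal level, above every marginal marker. Prkcz, an atypical protein kinase C, was 2.24 ± 0.45 SE higher on the log2 scale (adjusted p = 5.40e-05), and Pard6g was at -2.63 ± 0.58 SE on that scale (adjusted p = 0.000234), or -2.01 without capture 3 and -3.39 without capture 2. The call on Prkcz was lost without capture 2 (log2 fold change 1.40, adjusted p = 0.101). Arhgef2, which encodes the cingulin partner GEF-H1, was the 1 call among 4 GTPase regulators tested (29.2% of all genes) and was higher in marginal cells, at 99.6, 87.1 and 72.1 CPM against 17.0, 22.7 and 41.6 CPM (log2 fold change 1.71 ± 0.28 SE, adjusted p = 1.65e-06), on the same side as Cgn.

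Of 11 adherens junction genes tested, 7 were higher in basal and 2 higher in marginal cells, beside 14.1% and 15.1% of all genes. Cdh1, E-cadherin, was at 664, 675 and 635 CPM in basal and 235, 238 and 223 CPM in marginal cells (log2 fold change -1.56 ± 0.13 SE, adjusted p = 1.94e-15). Plekha7, a zonula adherens protein that binds paracingulin, was -2.97 ± 0.34 SE (adjusted p = 7.63e-11), Ctnnb1 -0.98 ± 0.13 SE (adjusted p = 2.65e-09), Jup -1.26 ± 0.19 SE (adjusted p = 2.21e-07) and Mllt4, afadin, -0.85 ± 0.23 SE (adjusted p = 0.00293, or 0.0637 without capture 2). Pvrl3, nectin 3, went the other way, at 43.8, 55.4 and 33.9 CPM in marginal and 8.52, 4.53 and 7.56 CPM in basal cells (2.84 ± 0.50 SE, adjusted p = 5.74e-06). Of the 23 called junction genes, 22 had the same direction in nuclei, 17 of them with an interval that excluded a ratio of 1. Those intervals cover the counting error of 1 library. The same count over all called genes is not given here, so this share cannot be read as particular to junction genes.

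**Figure D5:**
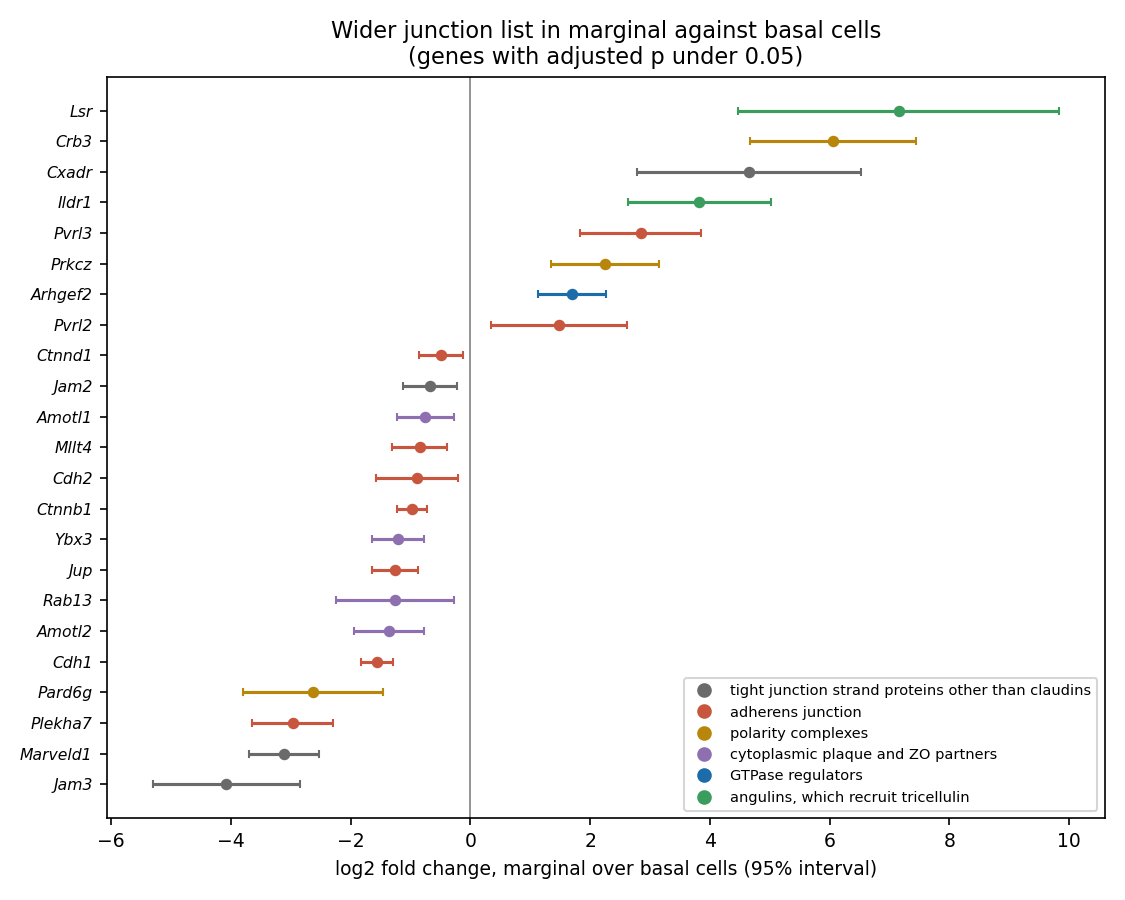
Log2 fold change of marginal over basal cells with 95% intervals for the 23 genes of the wider junction list with an adjusted p under 0.05, coloured by role. Lsr, Crb3, Cxadr and Ildr1 lie at the marginal end, and Jam3, Marveld1, Plekha7 and Pard6g at the basal end.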

How the data were processed

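The stria vascularis of P30 CBA/J mice was measured in 3 captures of cells and 1 of nuclei. The authors obtained the deposited UMI counts, which are raw, with Cell Ranger 2.0.0 on mm10, per the submitters' processing notes. Whether strand or introns entered the counting is not given in the sources used here. The genes of the set and the wider junction list were chosen with earlier results of these data known, and the rule for naming clusters was revised after the clusters and marker levels were seen.

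Barcodes with at least 200 genes were kept (377, 1314 and 1461 cells and 9723 nuclei), after removal of 1, 15, 20 and 978 doublets. Cells were clustered with Seurat 5.3.0 on 2000 variable genes at a resolution of 0.8, without the set or the junction list, and mixed clusters were clustered again. Clusters were named from listed markers, and 3980 nuclei stayed unnamed. A cluster was left out where its second class scored over 0.333 of the first. Types were defined on the same cells that were then compared.

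UMIs were summed per capture and type with at least 5 cells. edgeR 4.0.16 (TMM, filterByExpr, robust quasi-likelihood, capture as a block, R 4.3.3) was fitted to all 11 sums. The types of a capture come from 1 suspension, and deviations from the type means correlated at 0.08 to 0.17 within a capture (9 pairs) and at -0.17 to 0.01 across captures (18 pairs). The fit was tested on simulated data. Nuclei are 1 library, so exact intervals are given, and they cover counting error only. Levels in cells and nuclei were not set against each other, since the gene lists differ. Shares of barcodes were thinned to 1000 UMIs. Genes named are the 8 of the set, up to 20 called junction genes by smallest p, the angulins, and the 3 most alike genes of each member with at least 100 UMIs. The alternatives were DESeq2 1.42.0, other filters, scalings and clusterings, each capture left out, and 4 choices added after the data were seen. Some items of the junction list are not reported here.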

Additional observations from a re-analysis of the deposited data

Results flagged for a closer look

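Reissner's membrane nuclei (96 nuclei), which entered no comparison, held 4 of the genes above the reference nuclei. Reissner's membrane is the thin epithelial partition above the scala media. Tjp1 was at 152 CPM (exact 95% Poisson interval 94.4 to 233), Cgnl1 at 116 CPM (66.4 to 189), Ocln at 94.4 CPM (50.2 to 161) and F11r at 167 CPM (106 to 251). Each lower limit lay above the highest upper limit in erythroid and B cell nuclei, which was 39.5, 52.5, 29.2 and 22.0 CPM in the same order. The summed marginal markers were at 4428 CPM in these nuclei, beside 10280 CPM in marginal, 706 CPM in B cell and 423 CPM in erythroid nuclei, and their part in these levels was not tested. This is 1 library with no replicate.

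Ctnnd1, the p120 catenin of adherens junctions, went in opposite directions in cells and nuclei. In cells it was 95.6, 113 and 99.7 CPM in marginal and 96.5, 175 and 132 CPM in basal cells of captures 1, 2 and 3, higher in basal cells in each capture (log2 fold change -0.49, adjusted p = 0.0358 by edgeR). In nuclei the ratio of marginal to basal was 1.88 (exact 95% interval 1.14 to 3.26). The difference between the datasets was not tested. The call in cells was lost in 7 alternatives, among them without capture 2 (adjusted p = 0.466).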

How the results depend on the processing

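Between marginal and basal cells, the log2 fold changes of Tjp1 (-6.48 to -2.58), F11r (2.58 to 4.62), Cgn (3.09 to 4.46) and Marveld2 (2.19 to 3.27, adjusted p up to 0.0333) kept their direction and call in every alternative in which they were tested, as did Tjp3 (2.33 to 3.94). Tjp1 and F11r had a value in 20 settings, Cgn in 19, Marveld2 in 18 and Tjp3 in only 5. In the main fit Cgn and Marveld2, with 3 and 5 basal UMIs, passed the low-count filter through types where they were higher. Of the wider list, Lsr, Crb3, Cxadr and Ildr1, with 0, 1, 1 and 4 basal UMIs, passed in the same way, as did Jam3, with 4 marginal UMIs. Marveld3 ranged from 2.34 to 3.05 with a capture left out. DESeq2 called 1585 genes against 2116, and the fit with no replicate block called 1992 and changed the call of none of the 6 genes that passed the low-count filter. Splitting no mixed clusters left no marginal cells and gave no value.

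Cgnl1 was at 0.25 at a resolution of 1.2 and at -1.63 (adjusted p = 0.000269) in the sub-clusters with the least intermediate RNA, where 58% of 2485 genes were called. Ocln was at 0.13 with a limit of 0.5 on the second class, 0.0056 with at least 500 genes per barcode, 0.0017 with no low-count filter, 0.026 without TMM and 0.0073 without capture 1, and ranged from -0.16 to 0.074 with a capture left out. Cxadr was at -2.27 with the limit of 0.5. Against intermediate cells, the least-intermediate sub-clusters gave 1216 called genes for marginal and 1223 for basal cells, and basal cells gave 1531 to 2299 with a capture left out. These sub-clusters hold fewer cells and fewer genes were tested. Tjp1 in marginal against intermediate cells was at -0.022 at a resolution of 1.2, -3.03 in those sub-clusters and -0.21 to 0.41 with a capture left out, and Cgnl1 was at -0.55 in the sub-clusters. Cgn in basal against intermediate cells was at 2.31e-05 and 0.28 at resolutions of 0.4 and 1.2, 0.40 with 20 components, 0.13 with the limit of 0.5, 0.37 with doublets kept, 0.077 with the whole basal cluster, 0.0066 without mitochondrial genes, 0.23 without TMM and -0.51 to 0.16 with a capture left out. Tjp3 there was at -0.22 without capture 3.

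In nuclei, log2 ratios moved to 1.04 (Cgnl1), 0.11 (Ocln) and 1.24 (F11r) under 5% mitochondrial UMIs, and to 1.07 (Ocln), 2.68 (F11r) and at least 3.67 (Marveld2, 0 basal UMIs, floor of 3) with 20 components. Thinned to 500 UMIs, marginal minus basal shares were -1.14 (Cgnl1) and 1.22 (Ocln) percentage points in cells, and -9.12 (Tjp1), 0.832 (Cgn), 2.26 (Cgnl1), 1.74 (Marveld2) and 4.89 (F11r) in nuclei. The cause of these changes was not tested. Genes with 1 to 5 basal UMIs have wide counting intervals.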
